A study of Drosophila melanogaster with 140 samples.

Results

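The genes described here encode the subunits of the proteasome of Drosophila melanogaster. They were chosen by symbol, as the genes whose symbol starts with Rpn, Rpt, Prosalpha or Prosbeta, and a gene was kept where at least 1 of the 140 libraries reached 1 CPM, the count of a gene scaled to the same library size in all libraries. Of the 17562 genes in the count table, 47 had such a symbol and 43 were kept. These are 32 subunits, of which 6 are ATPases of the base, 4 are other base subunits, 8 belong to the lid, 7 are alpha and 7 are beta subunits of the core, and 11 further genes whose symbols carry an added R or T and which are paralogs of subunits. Prosalpha4T2, Prosbeta4R1, Prosbeta5R1 and Rpn12R, all paralogs, stayed below 1 CPM in every library.

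The proteasome is the protease that degrades most ubiquitin-tagged proteins of the cell. The regulatory particle binds the substrate, with Rpn10 and Rpn13 as ubiquitin receptors, Rpn1 and Rpn2 as large scaffolds, Rpn11 as the enzyme that removes the ubiquitin chain and the Rpt1 to Rpt6 ring as the ATPases that unfold the protein and thread it into the core. In the core, rings of alpha subunits form the gate, and Prosbeta1, Prosbeta2 and Prosbeta5 carry the proteolytic sites. Cells are known to raise the transcription of subunit genes together when proteasome activity is limiting, and loss of proteasome capacity is a long-standing topic in work on the aging brain and on aggregating proteins such as amyloid beta.

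The study asked how the RNA mark m6A and its methyltransferase Mettl3 act in the brain with age and with neuronal amyloid beta, and it used male flies throughout. Whole heads carried daGal4, which drives in nearly all cells, with Mettl3 RNAi or with the control mCherry RNAi, at 34d and 5d, with 3 replicates of pooled heads per group and an m6A-IP library for each input. Heads and brains of 6d flies expressed human Aβ42 (elav C155 driver, UAS-Aβ42, labelled UAS-AB-2x) or, as the control, mCD8-GFP (labelled UAS-mcd8GFP) from the same neuronal driver. The labels do not explain the 2x of the Aβ42 transgene. The 6d samples comprised 2 Aβ42 and 3 mCD8-GFP head replicates, each with input and m6A-IP, and 3 brain replicates per group. GFP-marked cells were sorted from brains with elavGal4 (elavGFP+ cells, 4 replicates per genotype at 34d and 3 at 5d) or repoGal4 (repoGFP+ and repoGFP- cells, 3 replicates per group), and all sorted flies carried UAS-mCD8-GFP together with Mettl3 RNAi or mCherry RNAi. For translating ribosome affinity purification (TRAP), brains expressed the FLAG-tagged ribosomal protein RpL3 in neurons (elavGal4) or glia (repoGal4), again with Mettl3 RNAi or mCherry RNAi. The TRAP-IP and the input of a replicate came from the same lysate, and groups had 4 pairs except neurons of control flies and glia of Mettl3 RNAi flies at 5d, with 3 TRAP-IPs for 4 inputs each. In whole heads and brains, fewer cells of a type and less RNA per cell cannot be told apart.

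Between 2132983 and 36361242 reads per library were counted on genes, with the TRAP libraries the shallowest (2132983 to 17891755) and the head libraries the deepest (18527609 to 36361242). No replicates of a group were as close as counting noise alone would leave them. Mettl3 RNA was lowered in the knockdown heads at 34d, with 2.11 to 2.58 CPM in Mettl3 RNAi heads against 7.02 to 7.32 CPM in control heads (log2 fold change -1.59, SE 0.125, adjusted p = 4.35e-08). At 5d it was 2.29 to 4.73 CPM in Mettl3 RNAi heads against 4.87 to 5.32 CPM in control heads, without overlap but short of the threshold (-0.57, adjusted p = 0.468). The cell labels were checked on marker genes in control flies. The glial gene repo had 86.4 to 270 CPM in repoGFP+ cells, against 0.635 to 5.92 CPM in repoGFP- cells, and 121 to 248 CPM in the TRAP-IPs of glia, against 28.1 to 75.6 CPM in their inputs. The 6 glial markers summed to 3718 to 5817 CPM in repoGFP+ cells at 34d, against 134.2 to 287.5 CPM in repoGFP- cells, where moody was at 0 in all libraries. The neuronal markers separated the labels less. Their sum over 6 genes was 3204 to 4221 CPM in TRAP-IPs of neurons and 3358 to 4259 CPM in TRAP-IPs of glia at 34d, and the gene elav itself was at 110 to 180 CPM in the neuron IPs and 172 to 256 CPM in the glia IPs. The elavGFP+ cells also held glial markers, with 2245 to 3081 CPM summed over 6 genes at 34d and 4403 to 6336 CPM at 5d. The part of this mixture in the comparisons between cell types, and of its change in the age comparison of elavGFP+ cells, was not tested.

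Per kilobase of exon, core subunits filled most of the upper places among the 32 subunits in control heads at 34d. Prosbeta1, a proteolytic subunit, was the highest with 125 ± 8.91 CPM per kb (SD, n = 3), followed by the gate subunits Prosalpha3 with 114 ± 2.00 and Prosalpha1 with 98.5 ± 4.82 CPM per kb. The lowest were Prosbeta4 with 32.5 ± 1.47 and the lid subunit Rpn9 with 34.6 ± 0.913 CPM per kb, and these neighbours did not overlap in their libraries. Rpt2 (94.6 ± 1.54) and Prosbeta6 (93.5 ± 6.69), next to each other in the order, did not differ beyond their spread, nor did Prosbeta5 (89.1 ± 3.56) and Prosalpha7 (89.1 ± 2.35). The order differed between the sources of RNA, which also differed in driver and transgenes and, for the brains, in age. Prosbeta5, the subunit with the chymotrypsin-like site, was the highest in mCD8-GFP brains (54.1 ± 0.657 CPM per kb), in elavGFP+ cells at 34d (143 ± 19.2) and in repoGFP+ cells at 34d (150.5 ± 44.8), whereas it was sixth in heads. Rpn2 had the lowest value in elavGFP+ cells (20.9 ± 5.28 CPM per kb). The sorted cells were amplified with another library kit than the brains and heads, so values of one gene were not compared across these experiments.

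With age, nearly all proteasome subunits had less RNA in control heads. Of the 34 members that passed the filter on low counts, 31 were lower at 34d than at 5d and 0 were higher, where 27.9% of all genes tested were lower (quasi-likelihood test of edgeR, adjusted p under 0.05). These were 30 of the 32 subunits and 1 paralog. The median log2 fold change of the 32 subunits was -0.91, against -0.05 over all genes tested. All 6 base ATPases (median -0.84), all 8 lid subunits (-1.03), all 7 alpha subunits (-0.97) and all 7 beta subunits (-0.96) fell, and the 2 exceptions, Rpn1 and Rpn2, are the 2 scaffolds of the base. For brains of other flies, over a wider span of ages, the paper reported the proteasome among pathways enriched in genes rising with age. Those data were not used here.

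Rpn11, the deubiquitinating enzyme of the lid (chromosome 2L, positions 5058404 to 5059790 on the minus strand, dm6), had 52.3, 55.3 and 54.3 normalized CPM in 34d control heads, against 117, 205 and 114 in 5d control heads. The libraries at 34d were close to each other and all below every 5d library, and replicate 2 at 5d stood far above the other 5d libraries. The log2 fold change was -1.43 (SE 0.229, edgeR adjusted p = 0.00221). Rpn9, another lid subunit (chromosome 3R, 23731375 to 23733462), had 56.5, 53.8 and 55.7 CPM at 34d, against 96.6, 220.0 and 130 at 5d, again without overlap (log2 fold change -1.43, SE 0.278, adjusted p = 0.00495). Of its exon bases, 15.7% are shared with other genes, and the strand setting of the counting is not given in the sources used here. The gate subunit Prosalpha5 had 67.8, 68.0 and 66.9 CPM at 34d, against 154.6, 217 and 123 CPM at 5d (log2 fold change -1.29, SE 0.194, adjusted p = 0.00176).

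The 2 scaffolds also had lower fitted levels at 34d, but were not called in control heads. Whether they differ from the other subunits was not tested. Rpn1 had 153, 147 and 154 CPM in 34d control heads, against 127, 300.4 and 181 CPM in 5d control heads, and Rpn2 had 145, 137 and 152 CPM at 34d, against 105, 318 and 197 CPM at 5d. For both genes, replicate 1 at 5d was below all libraries at 34d and replicate 2 was far above them, so the ages overlapped. Their log2 fold changes of -0.42 (adjusted p = 0.246) and -0.51 (adjusted p = 0.253) did not pass the test.

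In heads with Mettl3 RNAi the same comparison gave a similar picture. Of the 34 members tested, 33 were lower at 34d than at 5d and 0 were higher, where 37.1% of all genes tested were lower, and the median of the 32 subunits was -0.96, against -0.02 over all genes tested. Rpn9 had 47.5, 50.5 and 48.0 CPM at 34d, against 210, 149 and 106 CPM at 5d (log2 fold change -1.68, SE 0.280, adjusted p = 0.00487). The lid subunit Rpn12 had 44.7, 44.7 and 44.5 CPM at 34d, against 153, 114 and 89.1 CPM at 5d (-1.41, SE 0.213, adjusted p = 0.00246). Prosbeta4 had 21.3, 22.3 and 21.2 CPM at 34d, against 69.2, 51.2 and 41.1 CPM at 5d (-1.32, SE 0.205, adjusted p = 0.00243). In each of these genes every 34d library was below every 5d library. Rpn2 passed the test here (-0.73, adjusted p = 0.0239), and Rpn1 was the only one of the 34 that did not (-0.39, adjusted p = 0.114).

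**Figure D1:**
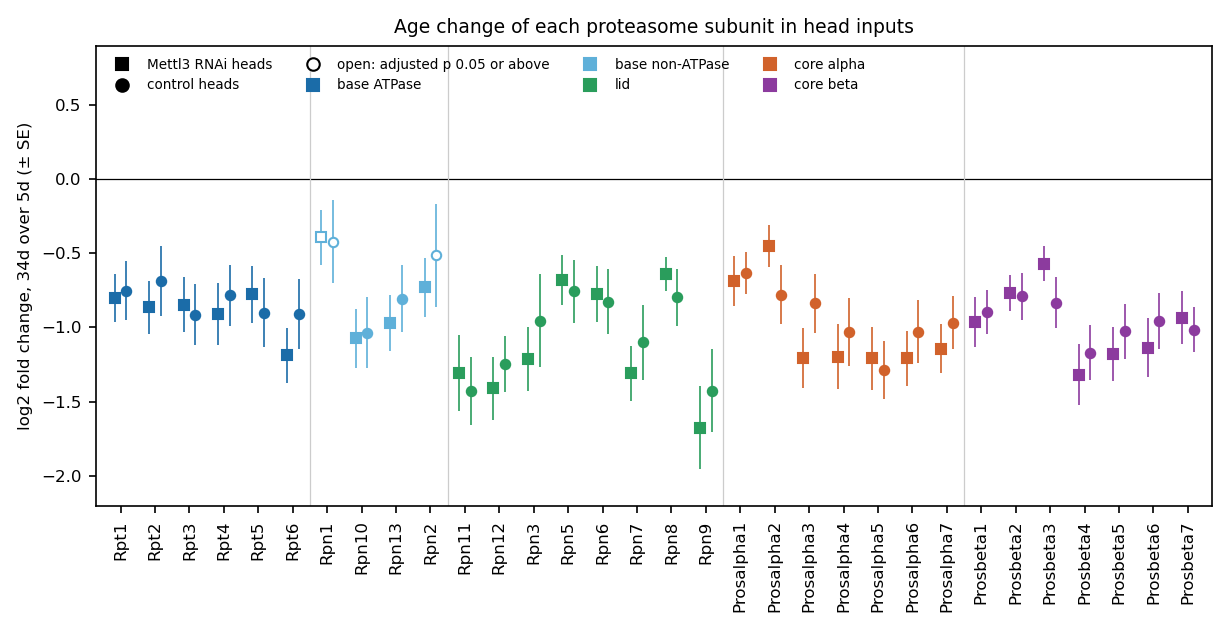
Log2 fold change of 34d over 5d (vertical axis, ± SE of the fit) for each of the 32 subunits in Mettl3 RNAi heads (squares) and control heads (circles), coloured by class, with open symbols where the adjusted p was 0.05 or above. All points lie below 0, Rpn1 and Rpn2 lie nearest to it in control heads, and the lid holds the lowest values.

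Across the 32 subunits, the changes of the 2 genotypes, which come from separate libraries, had a Pearson r of 0.83 and a Spearman rho of 0.85, as a description over genes that are not independent. Within the lid, Rpn9, Rpn11 and Rpn12 changed by -1.68, -1.31 and -1.41 in Mettl3 RNAi heads and by -1.43, -1.43 and -1.25 in control heads, and Rpn5, Rpn6 and Rpn8 by -0.68, -0.77 and -0.64 in Mettl3 RNAi heads and by -0.76, -0.83 and -0.80 in control heads. Whether the change with age differed between genotypes was tested as an interaction. In the interaction test 0 of 34 members passed, where 2.03% of all genes tested did, 0 members had an unadjusted p under 0.05, and DESeq2 called 0. With the 5d libraries of high Hsp70 left out, only the 5d library of low Hsp70 remained per genotype. In that fit the median difference in age change, Mettl3 RNAi less control, was -0.14 over the 32 subunits, against -0.01 over all genes. Its calls are not counted, since the spread then comes from the 34d libraries alone.

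The 5d head libraries were far less uniform than the 34d ones, and this variation had a common direction over the subunits. Summed over the 32 subunits, Mettl3 RNAi heads had 2563.1, 2604.7 and 2583 CPM at 34d, against 6291.8, 4738.8 and 3797 CPM at 5d, and control heads had 3002.1, 2893.4 and 2902.6 CPM at 34d, against 3589.8, 6825.3 and 4397.7 CPM at 5d. The heat shock chaperone genes of the Hsp70 family, a list chosen after values were seen, varied between the same libraries. Their 6 genes summed to 113, 82.4 and 105 CPM at 34d and 889, 460.2 and 120 CPM at 5d in Mettl3 RNAi heads, and to 98.1, 94.5 and 89.2 CPM at 34d and 108, 4711 and 923 CPM at 5d in control heads. Within each genotype at 5d, the order of the 3 libraries by Hsp70 was their order by subunit RNA. The library of each genotype with the least Hsp70 at 5d, which lay near the 34d level for Hsp70, still had more subunit RNA than every 34d library.

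**Figure D2:**
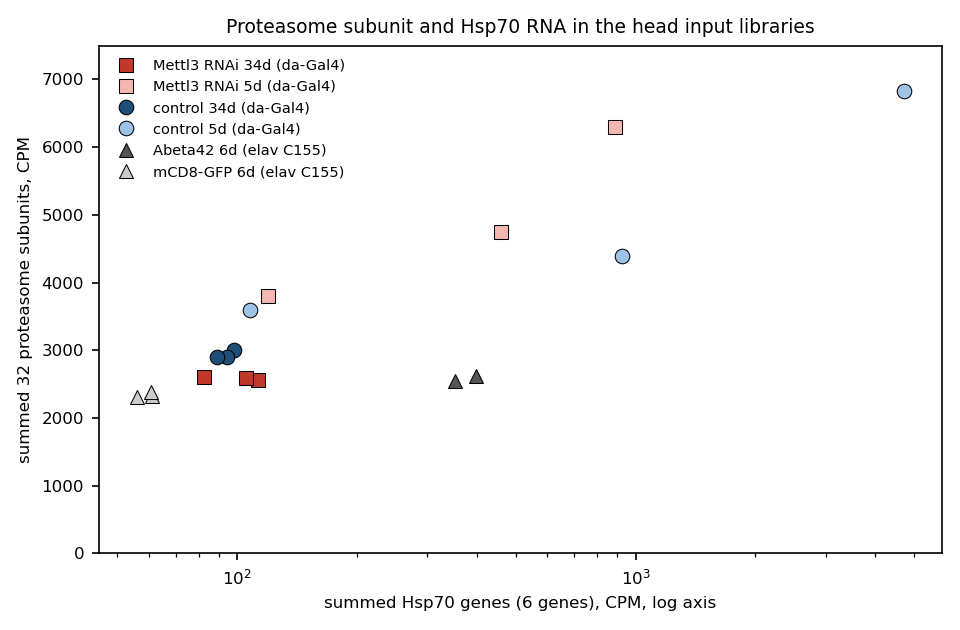
Summed CPM of the 32 subunits (vertical axis) against summed CPM of 6 Hsp70 genes (horizontal axis, log scale), one point per head input library. The 34d libraries (dark squares and circles) lie between 2563.1 and 3002.1 CPM of subunit RNA, the 5d libraries of the same genotypes spread upward to 6825.3 CPM, and the 6d libraries of the elav C155 experiment lie near or below the 34d ones.

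Both the fold changes and the calls depended on single libraries. In control heads 21 members were lower without any one of the 34d libraries. Without replicate 2 of control heads at 5d the median of the subunits was -0.62 with 29 members lower. With only the 5d library of low Hsp70 kept per genotype, an alternative chosen after seeing the data, the median was -0.52 in control heads and -0.61 in Mettl3 RNAi heads. In that fit the lone 5d library is assumed to vary like the 34d libraries, and in control heads Rpn1 (0.28) and Rpn2 (0.49) turned to higher at 34d. Markers of other tissues also moved with age in heads. Over both genotypes, the 3 muscle markers summed to 1016 to 1387 CPM at 34d and 1893 to 3815 CPM at 5d, the 3 fat body markers to 426.4 to 929.8 CPM at 34d and 3657 to 6657 CPM at 5d, the 3 photoreceptor markers to 31830 to 36870 CPM at 34d and 17560 to 27230 CPM at 5d, and the 2 hemocyte markers to 143 to 256 CPM at 34d and 97.6 to 146 CPM at 5d. The part of Hsp70 and of these tissues in the lower subunit RNA was not tested.

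Genes that work with the proteasome but fall outside the symbol rule included both higher and lower ones with age in heads. Of 18 such genes, 5 were higher and 7 lower at 34d in control heads, and 7 were higher and 8 lower in Mettl3 RNAi heads. Over all genes tested, 2473 were higher and 2936 lower of 10512 in control heads, and 3656 were higher and 3920 lower of 10558 in Mettl3 RNAi heads. In control heads the lower ones included Sem1, a small lid subunit (-1.46), the proteasome-bound deubiquitinases Uch-L5 (-1.57) and Usp14 (-1.25), and Pomp (-0.75), which assists core assembly. The higher ones included Uba1, the ubiquitin-activating enzyme (0.48), Npl4, a cofactor of the segregase TER94 (0.63), and cnc (0.59), which encodes the transcription factor known to activate subunit genes.

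In sorted cells and dissected brains a fall like that in heads was not detected. In elavGFP+ cells 0 of 39 members changed with age in control flies, where 4.35% of all genes tested changed (edgeR, with 2 members at an unadjusted p under 0.05 and 0 called by DESeq2), and 0 of 39 in Mettl3 RNAi flies, where 3.83% of genes changed (3 at an unadjusted p under 0.05, 1 by DESeq2). In repoGFP+ cells 0 of 35 members changed in control flies (0.12% of genes, 2 at an unadjusted p under 0.05, 1 by DESeq2) and 0 of 34 in Mettl3 RNAi flies (0% of genes, 0 at an unadjusted p under 0.05, 0 by DESeq2). In repoGFP- cells of control flies 0 of 35 changed (1.2% of genes, 2 at an unadjusted p under 0.05, 2 by DESeq2). The age change did not differ detectably between repoGFP+ and repoGFP- cells, with 0 of 36 members in the interaction test (0.0305% of genes, 4 at an unadjusted p under 0.05, 0 by DESeq2). Few genes of any kind passed in the glial sort, so these counts carry little weight on their own, and the medians are given beside them.

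The medians of the 32 subunits lay near 0 in the sorted cells, at -0.15 in Mettl3 RNAi and 0.04 in control elavGFP+ cells, at -0.01 in Mettl3 RNAi and -0.09 in control repoGFP+ cells, and at -0.01 in repoGFP- cells, and the medians of all genes there lay between 0.00 and 0.05. Rpn11, with the largest fall in control heads, had 65.5, 52.8, 57.8 and 62.97 CPM in elavGFP+ cells at 34d, against 66.8, 66.5 and 65.6 CPM at 5d. Its 34d libraries were all below the 5d ones, but the log2 fold change was only -0.15 (SE 0.157, adjusted p = 0.722). In repoGFP+ cells Rpn11 had 50.5, 54.4 and 71.9 CPM at 34d, against 42.2, 56.9 and 72.2 CPM at 5d, a difference of 0.04 on the log2 scale with an SE of 0.298. Rpn9 was at 95.7, 102, 89.8 and 99.2 CPM in elavGFP+ cells at 34d and at 92.6, 89.9 and 107 CPM at 5d, so the ages overlapped fully (log2 fold change 0.00, SE 0.140). The lid subunit Rpn7 had the largest change in elavGFP+ cells, with 34.1, 47.5, 52.1 and 70.9 CPM at 34d, against 80.7, 84.1 and 77.9 CPM at 5d in control flies, and did not pass the test either (-0.66, adjusted p = 0.153).

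The whole-brain inputs of the TRAP experiment gave a test at a depth and spread that did yield calls. In inputs of the elav flies 0 of 32 subunits changed with age, where 12.9% of genes changed (edgeR, 1 subunit at an unadjusted p under 0.05, 0 by DESeq2). In inputs of the repo flies 2 of 32 were higher, where 12.2% of genes were, and 3 were lower, where 13.1% were, and the medians of the 32 subunits were -0.07 and -0.03. Rpn2 had 54.2, 61.7, 70.8 and 59.9 CPM at 34d, against 34.8, 44.8, 38.8 and 42.5 CPM at 5d in the repo inputs, with every 34d library above every 5d library (log2 fold change 0.62, SE 0.136, adjusted p = 0.00465). The alpha subunit Prosalpha7 had 52.4, 48.4, 51.8 and 45.8 CPM at 34d, against 39.2, 35.2, 40.1 and 34.5 CPM at 5d (0.41, SE 0.128, adjusted p = 0.0297). Rpn7 was lower in the same libraries, with 29.2, 29.8, 23.8 and 24.3 CPM at 34d, against 43.9, 38.3, 34.8 and 42.3 CPM at 5d (-0.57, SE 0.146, adjusted p = 0.0106). The ATPases Rpt3 (-0.46, SE 0.128, adjusted p = 0.0170) and Rpt2 (-0.41, SE 0.134, adjusted p = 0.0355) also fell. The count of 5 became 2 or 3 without replicate 1 or 3 of the 34d inputs or replicate 2 or 3 of the 5d inputs. Whether heads and brains differ in their age change was not tested, since they come from separate experiments.

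**Figure D3:**
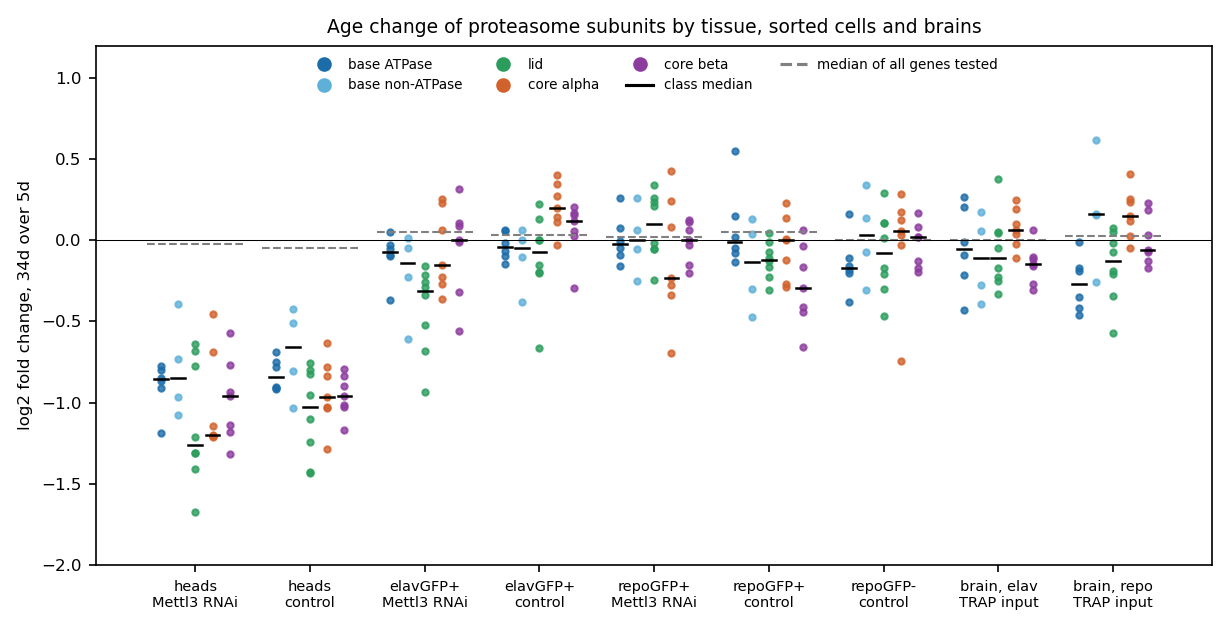
Log2 fold change of 34d over 5d (vertical axis) of the 32 subunits, one point each, in heads, sorted cells and whole-brain TRAP inputs, coloured by class with class medians as short black lines and the median of all genes tested as a dashed line. In heads the class medians lie between -0.66 and -1.26, and in sorted cells and brain inputs they scatter around 0.

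With neuronal Aβ42 the subunits were called about as often as other genes, and the changes were small. In heads 6 of 33 members were higher with Aβ42 and 0 lower, a share close to the 18.5% of all genes tested that were higher, and the median of the 32 subunits was 0.10, against 0.01 over all genes. The 6 were 4 of the 14 core subunits (Prosalpha4, Prosalpha5, Prosbeta4 and Prosbeta7), the lid subunit Rpn6 and the paralog Rpt3R. Prosbeta4 had 25.0 and 25.2 CPM in Aβ42 heads, against 20.5, 19.7 and 18.5 CPM in mCD8-GFP heads (log2 fold change 0.36, SE 0.081, adjusted p = 0.00383). Prosalpha5 had 69.3 and 71.9 CPM in Aβ42 heads, against 55.6, 57.9 and 53.4 CPM in mCD8-GFP heads (0.34, SE 0.063, adjusted p = 0.000894). Rpn6, which clamps the lid to the core, had 101 and 109 CPM in Aβ42 heads, against 93.3, 85.4 and 81.7 CPM in mCD8-GFP heads (0.27, SE 0.066, adjusted p = 0.00627). None of these genes overlapped between the groups. DESeq2 called 3. The count was 3 without mCD8-GFP replicate 3, and 10 without Aβ42 replicate 1, a fit in which the lone Aβ42 library is assumed to vary like the mCD8-GFP libraries.

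In brains 5 of 34 members were higher with Aβ42 and 0 lower, where 16% of all genes tested were higher, a share close to that of the members, and the median of the 32 subunits was 0.09, against 0.02 over all genes. The 4 subunits among them were all in the core, Prosalpha2, Prosalpha4, Prosalpha7 and Prosbeta7, and 0 of the 18 regulatory subunits passed. A difference between the core and the regulatory particle was not tested. Prosalpha4 had 34.8, 30.9 and 35.9 CPM in Aβ42 brains, against 29.7, 27.1 and 27.4 CPM in mCD8-GFP brains (0.27, SE 0.081, adjusted p = 0.0385). Prosbeta7 had 53.7, 46.5 and 54.0 CPM in Aβ42 brains, against 42.9, 43.1 and 43.1 CPM in mCD8-GFP brains (0.26, SE 0.073, adjusted p = 0.0326). Prosalpha7 had 43.9, 42.1 and 43.7 CPM in Aβ42 brains, against 38.1, 34.7 and 38.6 CPM in mCD8-GFP brains (0.22, SE 0.067, adjusted p = 0.0411). The groups did not overlap in any of the 3, but all 3 adjusted p-values lie close to 0.05, and the count was 1 without Aβ42 replicate 3 or any one mCD8-GFP library and 3 without Aβ42 replicate 2. DESeq2 called 2.

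The changes of the 32 subunits in heads and in brains, which were separate libraries, had a Pearson r of 0.66 and a Spearman rho of 0.69. Of the subunits, Prosalpha4 and Prosbeta7 passed in both sources, and so did the paralog Rpt3R. The other subunits called in heads did not pass in brains. Prosbeta4 was at 28.9, 29.0 and 31.7 CPM in Aβ42 brains and 24.3, 27.0 and 26.9 CPM in mCD8-GFP brains (0.20, adjusted p = 0.0896), and Rpn6 was at 79.7, 76.2 and 78.6 CPM in Aβ42 brains and 69.9, 72.3 and 71.6 CPM in mCD8-GFP brains (0.13, adjusted p = 0.0643). Among the 18 partner genes, 8 were higher and 0 lower in heads, and 8 were higher and 0 lower in brains. Over all genes tested, 1888 were higher and 1785 lower of 10210 in heads, and 1566 were higher and 1464 lower of 9759 in brains, and the partner list was chosen with earlier results known. TER94, the segregase that extracts ubiquitinated proteins, rose by 0.36 in heads and 0.75 in brains on the log2 scale, the activator cap gene REG by 0.29 and 0.30, and cnc by 0.28 and 0.42. In the same Aβ42 samples the Hsp70 genes summed to 352 and 398 CPM in heads and 417 to 1495 CPM in brains, against 56.0 to 61.3 CPM in mCD8-GFP heads and 84.1 to 104 CPM in mCD8-GFP brains. The photoreceptor markers summed to 23400 to 23580 CPM in Aβ42 heads and 16550 to 20290 CPM in Aβ42 brains, against 31900 to 32410 CPM in mCD8-GFP heads and 28440 to 31260 CPM in mCD8-GFP brains, and the fat body markers to 411.1 to 427.8 CPM in Aβ42 heads, against 2305 to 4103 CPM in mCD8-GFP heads. The part of these shifts in the result was not tested.

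**Figure D4:**
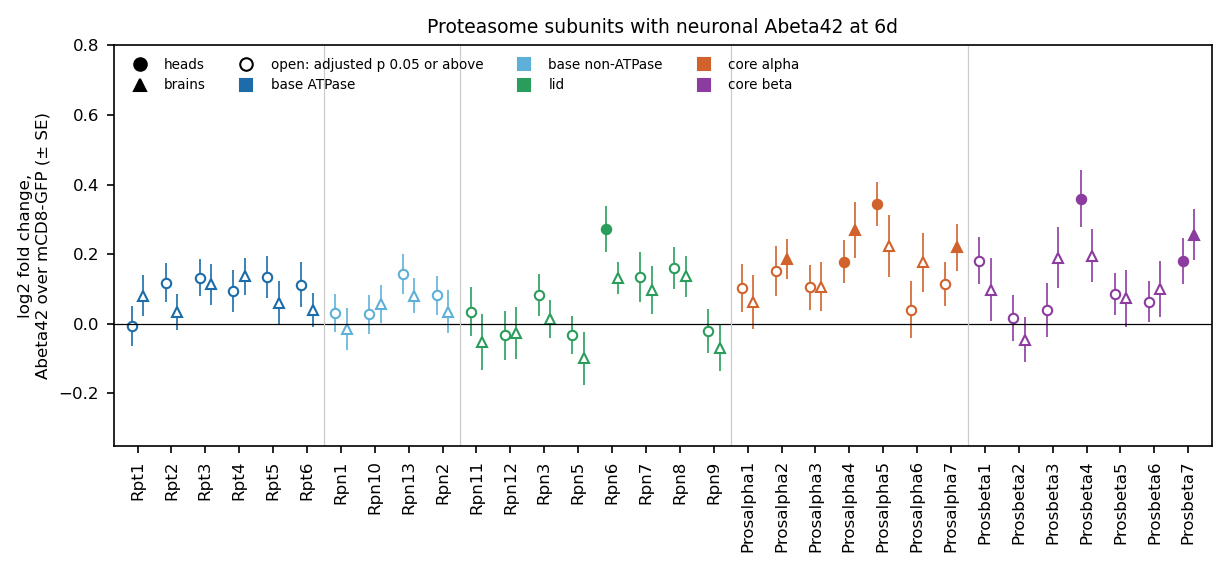
Log2 fold change of Aβ42 over mCD8-GFP at 6d (vertical axis, ± SE of the fit) for the 32 subunits in heads (circles) and brains (triangles), coloured by class, with filled symbols where the adjusted p was under 0.05. Most points lie slightly above 0, and 8 of the 9 filled points belong to the core.

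No subunit passed between glia and other brain cells. Between repoGFP+ and repoGFP- cells of control flies, 0 of 34 members differed at 5d, where 18.1% of all genes tested differed (edgeR, 3 members at an unadjusted p under 0.05, 1 by DESeq2), and 0 of 36 at 34d, where 6.69% differed (2 at an unadjusted p under 0.05, 1 by DESeq2). The median log2 difference of the 32 subunits was 0.12 at 5d and -0.05 at 34d, against -0.02 over all genes at both ages.

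In TRAP-IPs single subunits differed between neurons and glia in both directions. For TRAP, here and below, neurons and glia name the driver, since the neuronal markers did not separate the IPs at 34d. A difference between the IPs may thus not be one between neurons and glia, which was not tested. In TRAP-IPs at 5d, 4 of 33 members were higher in neurons than in glia, where 16.3% of genes were, and 1 was lower, where 16.7% were. At 34d 3 of 32 were higher, where 7.86% of genes were, and 1 was lower, where 12.3% were. The shares are below or near those of all genes, and the medians of the 32 subunits were 0.06 at 5d and 0.14 at 34d, against 0.02 and 0.00 over all genes. At 5d Prosbeta5 had 220.0, 171 and 244 CPM in neurons, against 75.4, 94.3, 93.2 and 129 CPM in glia (log2 fold change 1.11, SE 0.218, adjusted p = 0.0026), and Prosalpha3 had 129, 126 and 155.4 CPM in neurons, against 65.6, 77.1, 65.2 and 110 CPM in glia (0.78, SE 0.220, adjusted p = 0.0177). At 34d the same genes were closer, with 224, 208, 164 and 204 CPM of Prosbeta5 in neurons and between 127 and 171 CPM in the 4 glia libraries (0.46, adjusted p = 0.0705), and Prosalpha3 reached 119, 111, 153 and 136 CPM in neurons and 126, 139, 193 and 129 CPM in glia (-0.18, adjusted p = 0.565).

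The ATPases Rpt4 and Rpt6 were higher in neuron IPs at both ages. Rpt6 had 73.1, 89.6 and 105 CPM in neurons at 5d, against 50.9, 55.0, 57.6 and 50.9 CPM in glia (0.74, SE 0.188, adjusted p = 0.0106), and 99.5, 94.2, 85.9 and 76.4 CPM in neurons at 34d, against 34.7, 61.6, 36.4 and 54.5 CPM in glia (0.92, SE 0.240, adjusted p = 0.0163). Rpt4 had 130, 113, 131 and 123 CPM in neurons at 34d, against 67.2, 72.5, 81.4 and 38.7 CPM in glia (0.94, SE 0.228, adjusted p = 0.0114). At 5d Rpt4 passed with overlapping groups (0.85, adjusted p = 0.0413), since neuron replicate 1 with 54.0 CPM lay inside the range of glia. Of Rpt6, 13% of exon bases are shared with another gene, and of Rpt4 6.35%. The lower ones were lid subunits. Rpn9 had 38.3, 45.7 and 42.5 CPM in neurons at 5d, against 67.9, 76.1, 85.2 and 78.9 CPM in glia (-0.86, SE 0.187, adjusted p = 0.00467), and Rpn6 had 29.5, 34.7, 39.5 and 36.5 CPM in neurons at 34d, against 57.5, 73.6, 52.8 and 96.7 CPM in glia (-1.004, SE 0.257, adjusted p = 0.0149). Prosalpha1 also passed at 34d (0.97, adjusted p = 0.0476). Single libraries moved the counts. At 5d the count of 5 was 9 without neuron replicate 1, 2 without neuron replicate 3 and 3 without replicate 1, 2 or 3 of glia, and at 34d the count of 4 was 1 without neuron replicate 1 and 2 without neuron replicate 2. The changes at 5d and 34d had a Pearson r of 0.39 across the 32 subunits.

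The ratio of TRAP-IP to input asks which transcripts are over- or under-represented on the tagged ribosomes of a cell type relative to the whole brain, and so mixes translation with the cell type's own RNA content. In neurons of control flies at 5d, 0 of 32 subunits passed, where 11.1% of genes did (edgeR, 9 subunits at an unadjusted p under 0.05, 1 by DESeq2), and 8 passed without replicate 1. The median of the 32 subunits was -0.26 at 5d, against -0.03 over all genes. At 34d, 5 of 32 were enriched, where 26.2% of genes were, and 7 were depleted, where 26.6% were. The enriched subunits were Rpt4, Rpt6, Rpn5, Prosalpha3 and Prosbeta5, and the depleted ones Rpt5, Rpn13, Rpn12, Rpn6, Prosalpha2, Prosalpha7 and Prosbeta4, so the base, the lid and the core each held subunits of both directions. Rpt4 had log2 ratios of 0.76, 1.04, 1.47 and 0.93 in the 4 pairs (fitted 1.05, SE 0.130, adjusted p = 2.07e-06), and Prosbeta5 had 0.77, 0.88, 0.44 and 0.52 (0.65, SE 0.109, adjusted p = 6.26e-05). The ubiquitin receptor Rpn13 had -1.31, -0.67, -1.11 and -1.12 (-1.06, SE 0.150, adjusted p = 1.03e-05), Rpn6 had -1.25, -0.95, -1.03 and -0.90 (-1.03, SE 0.146, adjusted p = 1.01e-05), and Prosbeta4 had -1.11, -0.89, -0.10 and -0.82 (-0.72, SE 0.181, adjusted p = 0.00246). All pairs of these 5 genes had the sign of the fit. The 3 pairs at 5d gave Prosbeta5 0.72, 0.40 and 0.94 and Rpn6 -0.31, -1.13 and -0.997, on the same side as at 34d. Prosbeta4 also kept its sign at 5d (mean -0.24, SD 0.163). Rpt4 (mean 0.41, SD 1.02) and Rpn13 (mean -0.41, SD 1.21) did not keep one sign over the pairs at 5d. The ratios at 5d and 34d had a Pearson r of 0.72 across the 32 subunits. The ratio did not change detectably with age, with 0 of 32 subunits in the interaction test (1.25% of genes, 1 subunit at an unadjusted p under 0.05, 0 by DESeq2). The count at 34d was 7 without replicate 3.

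In glia at 5d members were depleted in the TRAP-IP about as often as other genes, and enriched less often. Of 33 members 3 were enriched, where 28.8% of genes were, and 10 were depleted, where 27.6% were. The median of the 32 subunits was -0.17, against -0.03 over all genes. The depleted ones were 8 of the 18 regulatory subunits, among them Rpt1, Rpt3, Rpt6, Rpn3 and Rpn7, and 2 of the 14 core subunits, Prosalpha2 and Prosalpha5. A difference between the core and the regulatory particle was not tested here either. The ubiquitin receptor Rpn10 had log2 ratios of -0.77, -0.85, -0.73 and -1.16 (-0.88, SE 0.140, adjusted p = 3.68e-05), Prosalpha2 had -0.67, -0.48, -0.57 and -1.22 (-0.73, SE 0.144, adjusted p = 0.000332), and Rpn8, the partner of Rpn11 in the lid, had -0.67, -0.45, -0.53 and -0.82 (-0.62, SE 0.142, adjusted p = 0.00125). Rpn2 was enriched with 0.69, 0.58, 0.71 and 0.56 (0.64, SE 0.129, adjusted p = 0.000412), and so was Rpn9 (0.34, SE 0.128, adjusted p = 0.0327). At 34d only Prosalpha2 (-1.24, SE 0.274, adjusted p = 0.0113) and Rpn13 (-1.19, SE 0.244, adjusted p = 0.00774) of 32 were depleted, where 8.27% of genes were, with 0 enriched, and only 1 of them remained called without replicate 1 or without replicate 2. DESeq2 called 5 there, and the median of the 32 subunits was -0.27, against -0.15 over all genes. Rpn10, with -0.48, -0.98, -0.47 and -1.02 at 34d, kept its sign in all pairs without passing (adjusted p = 0.0705). The ratio did not change detectably with age in glia, with 0 of 33 members (3.91% of genes, 3 at an unadjusted p under 0.05, 1 by DESeq2), and 1 passed without replicate 3 of the 34d pairs. Across the 32 subunits the ratios of neurons and glia had a Pearson r of 0.56 at 34d and 0.19 at 5d.

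**Figure D5:**
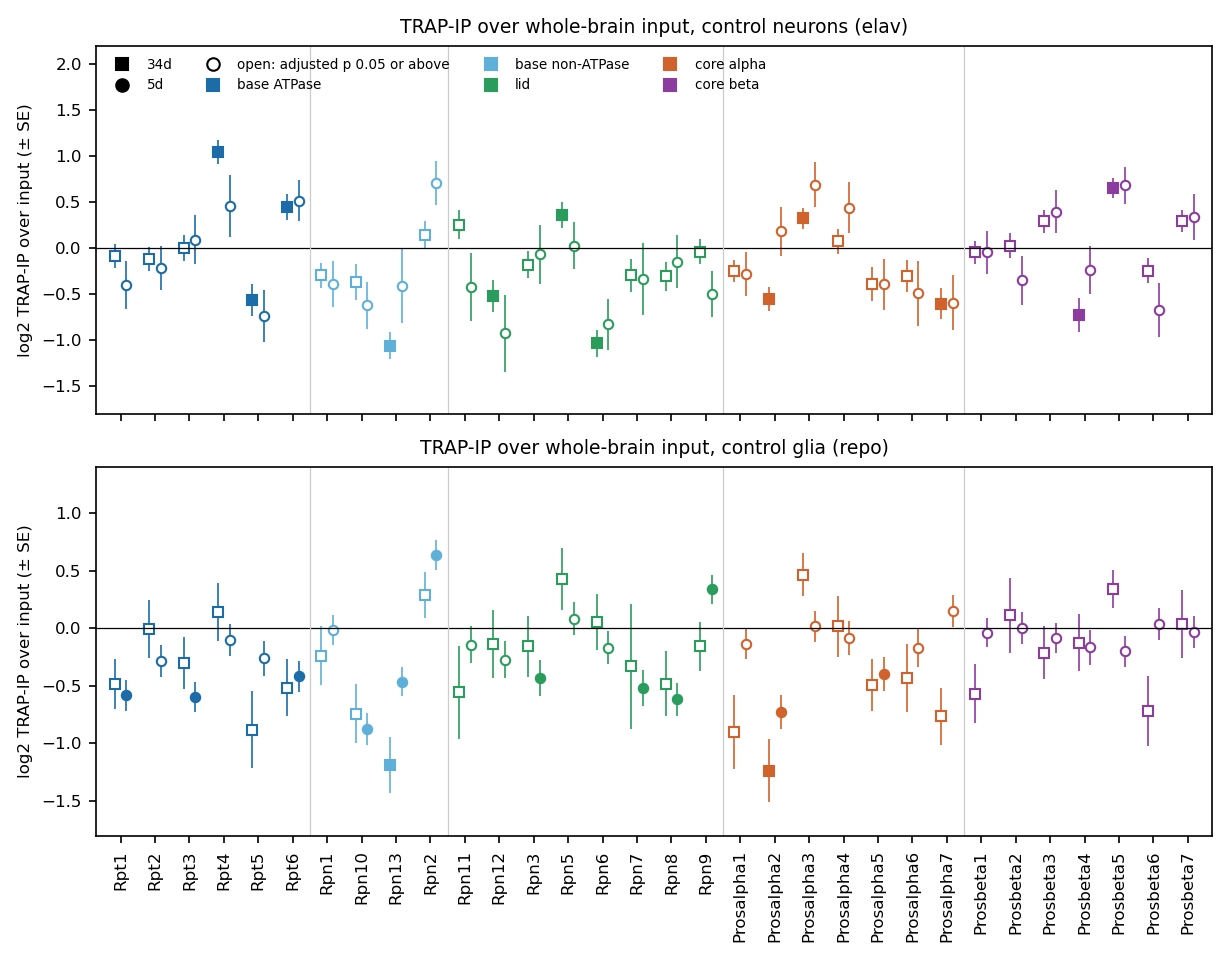
Log2 ratio of TRAP-IP over whole-brain input (vertical axis, ± SE of the fit) for the 32 subunits in control neurons (upper panel) and control glia (lower panel) at 34d (squares) and 5d (circles), coloured by class, with filled symbols where the adjusted p was under 0.05. In neurons Rpt4 at 1.05 stands highest and Rpn13 and Rpn6 lowest at 34d, and in glia at 5d most filled symbols lie below 0.

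In Mettl3 RNAi heads at 34d, where Mettl3 itself was lowered, a majority of the subunits were slightly lower than in control heads. Of 33 members 21 were lower with Mettl3 RNAi and 0 higher, where 19.1% of all genes tested were lower, and the median of the 32 subunits was -0.17, against -0.01 over all genes. In the core 12 of 14 subunits were lower (median -0.23), and in the regulatory particle 9 of 18 (median -0.12), a difference between the particles that was not tested. Prosalpha7 had 70.7, 69.6 and 64.4 CPM in Mettl3 RNAi heads, against 87.0, 83.1 and 87.6 CPM in control heads (-0.33, SE 0.047, adjusted p = 2.26e-05). Rpn12 had 45.4, 45.3 and 45.8 CPM in Mettl3 RNAi heads, against 58.6, 53.3 and 57.7 CPM in control heads (-0.31, SE 0.050, adjusted p = 8.49e-05), and Prosalpha6 had 42.5, 41.9 and 44.4 CPM, against 51.2, 54.2 and 51.6 CPM in control heads (-0.28, SE 0.050, adjusted p = 0.000195). The groups were apart in all 3 genes. Muscle markers were higher in these Mettl3 RNAi heads (1193 to 1387 CPM, against 1016 to 1063 CPM in control heads), and fat body markers lower (426.4 to 681.7 CPM, against 880.7 to 929.8 CPM). Their part was not tested.

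No member passed with Mettl3 RNAi in the 3 other comparisons of expression that were made. At 5d, 0 of 34 members differed in heads, where 0.173% of genes did (edgeR, 0 at an unadjusted p under 0.05, 0 by DESeq2). At 34d, 0 of 36 differed in elavGFP+ cells (0.0366% of genes, 1 at an unadjusted p under 0.05, 0 by DESeq2) and 0 of 35 in repoGFP+ cells (0% of genes, 0 at an unadjusted p under 0.05, 0 by DESeq2). Almost no gene passed in these 3 comparisons, Mettl3 included, although it was at 1.04 to 1.33 CPM in elavGFP+ Mettl3 RNAi cells, against 3.50 to 8.45 CPM in control cells, and at 0 to 3.37 CPM in repoGFP+ Mettl3 RNAi cells, against 5.70 to 13.0 CPM in control cells. Mettl3 RNAi was not tested in sorted cells at 5d, in repoGFP- cells or in the TRAP libraries. In elavGFP+ cells at 5d the mean log2 CPM of the 32 subunits was 6.33, 6.52 and 6.34 in Mettl3 RNAi flies, against 6.22, 6.23 and 6.27 in control flies. The head comparison at 34d shares its libraries with the age comparison in each genotype, so the values above are not independent of those changes.

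Rpn2 had the highest mean m6A-IP/input ratio of the 32 subunits in all 6 groups of heads, and Prosbeta4 the lowest. The ratio of m6A-IP to input, taken here over the whole gene, gave log2 values of 3.20, 3.22 and 2.78 for Rpn2 in control heads at 34d and 3.04, 2.74 and 3.10 at 5d. Rpn8 followed with 1.57, 1.55 and 1.59 at 34d, and then Rpn10 with 1.28, 1.06 and 0.96, while Prosbeta4 had -2.61, -3.12 and -3.43. In heads with the elav C155 driver at 6d, Rpn2 had 1.67 and 1.47 with Aβ42 and 1.42, 1.14 and 1.13 with mCD8-GFP. Between Mettl3 RNAi and control heads the ratio of Rpn2 did not differ detectably at 5d (0.16, SE 0.142, adjusted p = 0.508) or at 34d (0.13, SE 0.119, adjusted p = 0.432).

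With Mettl3 RNAi at 34d the m6A-IP/input ratio of most subunits was higher. Of 33 members 22 were higher and 0 lower, where 12.6% of all genes tested were higher, and the median of the 32 subunits was 0.35, against 0.08 over all genes. They were 12 of 18 regulatory and 10 of 14 core subunits. The ratio uses the same head inputs as the expression comparison with Mettl3 RNAi at 34d, so these results are not independent. Prosalpha4 had log2 ratios of 0.14, 0.11 and 0.07 in Mettl3 RNAi heads, against -0.54, -0.48 and -0.53 in control heads (0.62, SE 0.100, adjusted p = 3.17e-05). Prosalpha3 had -0.25, -0.03 and -0.16 in Mettl3 RNAi heads, against -0.59, -0.72 and -0.83 in control heads (0.57, SE 0.106, adjusted p = 0.000204), and Prosbeta4 had -2.41, -2.48 and -2.36, against -2.61, -3.12 and -3.43 in control heads (0.60, SE 0.205, adjusted p = 0.0284). In these genes all Mettl3 RNAi values lay above all control values. At 5d only 1 of 34 members was higher, where 5.03% of genes were, and 0 lower. This was Prosalpha6 with -1.41, -1.17 and -1.40 in Mettl3 RNAi heads, against -1.73, -1.58 and -1.91 in control heads (0.41, SE 0.121, adjusted p = 0.0206), a call that ended without Mettl3 RNAi replicate 2 or control replicate 1. A ratio within a library is relative to its other transcripts, so a rise says that these transcripts took a larger part of the pulldown, not how many marks they carry.

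With age in control heads the ratio of the subunits went the other way, but this count depended on the scaling. Of 34 members 22 were lower at 34d, where 17.8% of genes were lower, and 0 were higher, with a median of -0.39 over the 32 subunits against -0.16 over all genes. Prosalpha3 had -0.76, -0.83 and -0.96 at 34d, against -0.43, -0.21 and 0.02 at 5d (-0.64, SE 0.114, adjusted p = 0.000195), Rpn13 had -0.22, -0.20 and -0.24 at 34d, against 0.36, 0.38 and 0.39 at 5d (-0.59, SE 0.101, adjusted p = 0.000132), and Rpn12 had -1.63, -1.55 and -1.52 at 34d, against -0.81, -0.94 and -1.17 at 5d (-0.59, SE 0.120, adjusted p = 0.00073). The ages did not overlap in these genes. With RLE scaling, which moved the median of all genes to 0.02, the median of the subunits was -0.21 and 5 members were lower, and DESeq2 and the fit with no filter on low counts gave 6 each. Without control replicate 2 of either age 13 were lower. These libraries at 34d are also the controls of the Mettl3 RNAi comparison at that age. The ratio with age also shares its inputs with the age comparison of expression in control heads, so the 2 are not independent.

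With Aβ42 the m6A-IP/input ratio of several core subunits was lower. Of 33 members 1 was higher, where 9.54% of genes were, and 10 were lower, where 14.8% were. The 10 were 8 of the 14 core subunits and 2 of the 18 regulatory ones, Rpt3 and Rpn6. The median was -0.27 in the core and 0.01 in the regulatory particle, a difference that was not tested. The ratios use the same head inputs as the expression comparison with Aβ42, so these results are not independent. Prosbeta4 had log2 ratios of -1.87 and -1.71 in Aβ42 heads, against -1.26, -0.80 and -1.03 in mCD8-GFP heads (-0.77, SE 0.167, adjusted p = 0.000977). Prosbeta5 had -1.002 and -0.95 in Aβ42 heads, against -0.60, -0.42 and -0.38 in mCD8-GFP heads (-0.51, SE 0.093, adjusted p = 0.000147), and Prosbeta2, the subunit with the trypsin-like site, had -1.05 and -0.98, against -0.67, -0.47 and -0.58 in mCD8-GFP heads (-0.44, SE 0.099, adjusted p = 0.00133). The exception was Rpn2, which rose (0.34, SE 0.092, adjusted p = 0.0065). The groups did not overlap in these 4 genes. The count of 11 was 6 without Aβ42 replicate 1, where the lone Aβ42 pair is assumed to vary like the mCD8-GFP pairs, 7 without mCD8-GFP replicate 3 and 7 with RLE scaling. With a mean count of at least 50, or with no filter, 4 were higher and 6 lower.

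The paralogs, which in flies are mostly known from the male germ line, were at the edge of detection in nearly all libraries. They are given here without test results, though those tested entered the counts of members above. None of the 11 kept paralogs exceeded 10 CPM. In heads Rpt6R was the only one to reach 1 CPM, and it did so in 12 of 34 libraries. It had 0.21, 0.32 and 0.12 CPM in Mettl3 RNAi heads at 34d, against 8.36, 7.33 and 3.29 CPM at 5d, and 0.11, 0.29 and 0.25 CPM in control heads at 34d, against 1.60, 8.69 and 3.87 CPM at 5d. All 6 libraries at 34d were thus below all 6 at 5d. In repoGFP- cells of control flies Rpt6R went the other way. It had 2.164, 1.225 and 2.253 normalized CPM at 34d, against 0, 0 and 0.16 at 5d. Rpt3R had 0.55 and 0.54 CPM in Aβ42 heads, against 0.24, 0.19 and 0.05 CPM in mCD8-GFP heads, and 1.35, 0.86 and 0.99 CPM in Aβ42 brains, against 0.28, 0.05 and 0.15 CPM in mCD8-GFP brains, again without overlap. Rpn13R reached its highest value, 9.38 CPM, in a TRAP-IP of glia, and had 3.87, 1.99, 4.82 and 4.69 as log2 TRAP-IP/input ratios in glia of control flies at 5d. In that comparison it averaged 1.86 CPM in the group with the higher level, so these ratios rest on low values. Prosalpha4T1 was at 1 CPM or more in 22 of 24 repoGFP libraries and 0 of 34 head libraries. These were made with different library kits, so a difference between cells and heads cannot be read from them. Whether reads of a paralog and its parent gene could be told apart in the counting is not given in the sources used here.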

How the data were processed

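The 140 RNA libraries came from whole heads, dissected brains, FACS-sorted cells and TRAP. The authors trimmed reads with Trim Galore, aligned them with STAR 2.7.3a to dm6, counted properly paired reads on exons of FlyBase genes with summarizeOverlaps and deposited these raw counts, one column per library, with no normalization. The strand setting of the counting is not given in the sources used here. Reads carry no molecular identifiers, and p-values measure only the spread between the replicates of a group.

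Groups were taken from the sample labels. Each comparison was fitted to its own libraries with edgeR 4.0.16 (quasi-likelihood test, robust, TMM scaling, genes kept with filterByExpr, R 4.3.3), with p-values adjusted by Benjamini-Hochberg over all genes tested and a threshold of 0.05. SE is the fitted change divided by the square root of F. TRAP-IP/input and m6A-IP/input fits had the replicate as a pair, since both libraries came from one lysate or RNA, and differences of effects were tested as interactions. Normalized CPM are TMM-scaled within a comparison, so a library can have different values in 2 comparisons. CPM per kb uses merged exon lengths of Ensembl release 115, from which gene positions were also taken, and the 43 members were all found there. Replicate numbers were checked for pairing in the other comparisons. The correlations of same-numbered libraries ran from -0.305 to 0.154 and in no comparison were all above 0.1, so these were fitted without pairs. The fit was tested on simulated data.

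Members, the 18 partner genes, the marker lists (neurons, glia, muscle, fat body, photoreceptors, hemocytes) and the tests were chosen with earlier results of these data known. Genes named with statistics are the up to 3 with the largest positive and the up to 3 with the largest negative fold change among members that passed the threshold, did not overlap between groups and averaged 10 CPM or more in the group with the higher level. Others named with a p (Rpn1, Rpn2, Rpn10 and Rpt4 at 5d, and genes followed from one comparison into the next) and the Hsp70 list were chosen after their values were seen. Alternatives were DESeq2 1.42.0, RLE scaling, no filter on low counts, a mean count of at least 50, the fit with or without the replicate block, RUVr with 1 factor for sorted cells, leaving out each replicate, and, added after seeing the data, leaving out 4 head libraries at 5d with high Hsp70. Columns of the authors' own comparisons were not used.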

Additional observations from a re-analysis of the deposited data

Results flagged for a closer look

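The mean log2 CPM of the 32 subunits and of each class was screened for single libraries standing apart in groups of 4 to 10 libraries. Of 96 group levels, 6 had such a library, and chance alone gives about 1 in 20. Over the 32 subunits, elavGFP+ control cells at 34d had replicate 1 at 6.12 with the others at 6.27 to 6.30, and the glial TRAP inputs of Mettl3 RNAi flies at 34d had replicate 4 at 5.65 with the others at 5.47 to 5.50. The base ATPases of elavGFP+ Mettl3 RNAi cells at 34d were at 6.94 in replicate 3, against 7.10 to 7.13 in the others. The core beta subunits stood apart in 3 TRAP groups. They were at 6.15 in replicate 4 of the neuronal control inputs at 5d, against 5.72 to 5.79 in the others, at 5.72 in replicate 1 of the neuronal Mettl3 RNAi inputs at 34d, against 5.82 to 5.84 in the others, and at 5.98 in replicate 1 of the glial control TRAP-IPs at 5d, against 6.11 to 6.13 in the others.

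The TRAP-IPs of glia with Mettl3 RNAi at 5d, which entered no comparison, had a mean log2 CPM of the 32 subunits of 6.12, 6.26 and 6.33, and even the lowest was above the highest control TRAP-IP of glia at that age (5.90). Their inputs were at 5.42, 6.08, 6.43 and 6.05, against 5.46 to 5.60 in the control inputs, so 3 of the 4 stood above all controls while replicate 1 did not.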

How the results depend on the processing

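No gene named by the rule reversed, but Rpn1 and Rpn2, named outside it, turned to higher at 34d in control heads (0.28 and 0.49) with the 5d libraries of high Hsp70 left out. Outside the fits that left out 1 library, 248 such results stayed on their side of the threshold and 18 lost their call, and in those fits 245 stayed and 56 lost it. The counts of members called that moved by over 1.5 times were, with DESeq2, 1 for age in Mettl3 RNAi elavGFP+ cells, 1 for age in control repoGFP+ cells, 2 for age in repoGFP- cells, 3 for Aβ42 in heads, 2 for Aβ42 in brains, 1 and 1 for glia against other cells at 5d and 34d, 1 for TRAP-IP against input in neurons at 5d, 5 for the same in glia at 34d, 1 for its change with age in glia, 6 for the m6A-IP/input ratio with age and 4 with Aβ42. RLE scaling gave 5 and 7 for these 2 ratios, and no filter gave 6 for the ratio with age and 1 for TRAP-IP in neurons at 5d. The fit with the replicate number as a block gave 3 for age in the repo TRAP inputs, 3 for Aβ42 in heads and 1 for Aβ42 in brains. Without the pairing of m6A-IP and input, the ratios gave 0 for Mettl3 RNAi at 5d, 0 for age and 4 for Aβ42. Leaving out the 5d head libraries with high Hsp70 left 1 library per genotype at 5d, so no count is given for the age by genotype test. This alternative could not be fitted for Mettl3 RNAi at 5d, which left 1 library a group. Other causes were not tested. Leaving out 1 library gave ranges of 21 to 32 (age, control heads), 27 to 33 (age, Mettl3 RNAi heads), 2 to 6 (age, repo inputs), 3 to 10 (Aβ42, heads), 1 to 4 (Aβ42, brains), 2 to 9 and 1 to 6 (neurons against glia, 5d and 34d), 0 to 8 and 7 to 14 (TRAP-IP in neurons), 9 to 13 and 1 to 2 (in glia), 0 to 1 (its age change in glia), 19 to 21 (Mettl3 RNAi heads at 34d), and 0 to 1, 16 to 23, 13 to 21 and 6 to 13 (m6A-IP/input with Mettl3 RNAi at 5d and 34d, age and Aβ42). The TRAP libraries, with as few as 2132983 reads, and the sorted cells limit what could be detected.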
